A study of Arabidopsis thaliana with 15 samples.

Results

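The 6 nuclear genes described here encode organellar small heat shock proteins of Arabidopsis, which work inside an organelle rather than in the cytosol. HSP23.6-MITO (AT4G25200), HSP23.5 (AT5G51440) and HSP26.5 (AT1G52560) belong to mitochondria, HSP21 (AT4G27670) to the chloroplast, HSP22.0 (AT4G10250) to the endoplasmic reticulum and its membrane system, and HSP15.7 (AT5G37670) to the peroxisome. They were taken by gene identifier from the 21593 genes listed in the table, and all 6 were among the 20512 genes tested. The files give HSP22.0 as ATHSP22.0 and AT5G51440, AT1G52560 and AT5G37670 by identifier alone, so the names used here for these 4 genes are the usual ones.

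Small heat shock proteins are chaperones that need no ATP. They assemble into oligomers around a conserved alpha-crystallin domain, bind proteins that have begun to unfold and keep them from aggregating until ATP-driven chaperones such as HSP70 and HSP101/ClpB refold them. Heat shock factors (HSFs), among them HSFA2, bind heat shock elements in their promoters. Plants are unusual in carrying separate small heat shock proteins for mitochondria, chloroplasts, the endoplasmic reticulum and peroxisomes, the organelles that handle much of the reactive oxygen formed in strong light.

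RNA-seq was performed on leaf RNA of wild type Col-0 plants, with 3 biological replicates in each of 5 conditions. Growth light (GL) was 100 μmol photons m-2 s-1 in an 8 h photoperiod, and GL leaves were sampled before any high light (HL). HL was 1000 μmol photons m-2 s-1, and leaves were taken after 15 min (HL15) and after 60 min (HL60). Recovery (R) followed the longer HL treatment, with leaves taken 15 min (R15) or 60 min (R60) after the return to GL. The study's methods name leaf number 7 of the rosette as the tissue sampled. All plants carried the same genotype, and there was 1 GL group for all treatments, so a treatment and the time of day at which leaves were taken cannot be told apart. As the libraries are from whole leaves, fewer cells of a type and less RNA per cell cannot be told apart.

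The deposited values are normalized counts, that is, estimated reads divided by a factor for library size, with a further factor for genes with several transcripts. They were not divided by transcript length. The libraries held 14403180 to 28102714 estimated reads, with a median of 18880954, and 1 read was worth 0.678 to 1.24 normalized counts. The 5 mesophyll markers examined, including RBCS1A and LHCB1.3, were at 27303 or more normalized counts in every library, and the seed storage gene CRA1 was at 0 in 14 of 15 libraries. Several libraries stood apart in the genes described here. In HL15 replicate 1 the 6 transcripts were 2.37 to 44.8 times the mean of replicates 2 and 3, and in HL60 replicate 2 they were 2.34 to 7.29 times the mean of replicates 1 and 3. In R60 replicate 1 their summed value was 312 normalized counts, against 74.3 and 78.9 in replicates 2 and 3. HL15 replicates 2 and 3 were closer to each other than any other pair of replicates (chi-square per degree of freedom of their reads 1.52, against 3.74 to 95.1 in the other pairs), but differed by more than the sampling noise of reads and were kept as separate libraries. Whether they are repeats of 1 sample was not tested. If they are, HL15 has 2 samples in place of 3, and with the pair averaged as 1 all 6 genes were still called higher in HL15 against GL and 1 lower in HL60 against HL15. Whether these differences between libraries came from plants, harvest or library preparation was not tested.

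In TAIR10.1, the assembly used here for positions, HSP23.6-MITO is at chr4:12916926-12918110 (plus strand, 2 exons), HSP23.5 at chr5:20891163-20892416 (plus strand, 2 exons) and HSP26.5 at chr1:19574538-19575866 (minus strand, 2 exons). HSP21 is at chr4:13818825-13819971 (minus strand, 2 exons), while HSP22.0 at chr4:6370338-6371372 and HSP15.7 at chr5:14968758-14969591, both on the plus strand, have 1 exon each. None of the 6 overlaps another annotated gene. Stretches of 31 bases shared with any other transcript made up 0.688% of HSP23.6-MITO (7 of 1018) and 0% of the others, so reads of these genes were rarely open to confusion with another gene. HSP26.5 has 2 annotated transcripts and the others have 1.

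The 250 bases before each gene start, read from the RefSeq copy of TAIR10.1, were searched on both strands for motifs that fit heat and organelle stress. The short heat shock element, TTCNNGAA or GAANNTTC, was found in 4 of 6 promoters, against 16.15% of 27426 annotated promoters. It was in 3 of 12 promoters of cytosolic small heat shock protein genes and in 6 of 17 of heat shock factors and coactivators. Counts for other chaperones were 1 of 10 mitochondrial, 4 of 10 chloroplast and 2 of 12 endoplasmic reticulum genes. For peroxisome quality control and import it was in 2 of 8. The mitochondrial dysfunction motif, CTTGNNNNNCACG or CTTGNNNNNCAAG, lies in promoters that respond to disturbed mitochondria. It was found in 2 of 6 promoters, against 1.196% of all promoters. These were HSP23.6-MITO and HSP23.5, and the motif was not in the window of HSP26.5, the other mitochondrial member. It was also in 2 of 12 promoters of cytosolic small heat shock protein genes and in 1 of 10 of mitochondrial chaperone genes, so it was not particular to mitochondrial proteins. The heat shock element of 3 units (GAANNTTCNNGAA or TTCNNGAANNTTC, which contains the short form) was in 0 of 6 and in 0.3828% of all promoters, and the ER stress element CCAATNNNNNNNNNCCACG was in 0 of 6 and in 0.3063%. The windows that hold a match are shown 5′ to 3′ on the strand of the gene, with matches in capitals. HSP23.6-MITO and HSP23.5 also share letters after the motif.
HSP23.6-MITO, bases -56 to -1 from the gene start, chr4:12916870-12916925 (+): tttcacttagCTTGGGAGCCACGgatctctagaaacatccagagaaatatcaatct
HSP23.5, bases -120 to -61, chr5:20891043-20891102 (+): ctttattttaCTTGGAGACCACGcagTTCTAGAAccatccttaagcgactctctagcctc
HSP26.5, bases -58 to -1, chr1:19575867-19575924 (-): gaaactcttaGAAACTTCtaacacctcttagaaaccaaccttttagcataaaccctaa
HSP21, bases -110 to -51, chr4:13820022-13820081 (-): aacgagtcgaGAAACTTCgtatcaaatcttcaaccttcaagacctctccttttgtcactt
HSP15.7, bases -168 to -109, chr5:14968590-14968649 (+): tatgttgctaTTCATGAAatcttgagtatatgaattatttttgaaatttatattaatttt
Aligned without gaps from the first base of the mitochondrial dysfunction motif, the promoters of HSP23.6-MITO and HSP23.5 were identical at 23 of 30 positions. This count includes the fixed letters of the motif, which match by the choice of alignment, and the length compared was also a choice. No other pair of promoters was compared, so the count is a description only. In HSP23.5 the motif at -110 to -98 is followed by a short heat shock element at -94 to -87. HSP26.5 and HSP21 carry the same 8 letters, GAAACTTC, at -48 to -41 and at -100 to -93. HSP22.0 held none of the 4 motifs in this window. The window depends on the annotated gene start, and a match describes letters only.

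HSP23.6-MITO, the best known of the mitochondrial small heat shock proteins, was nearly silent in GL and among the strongest responders of the whole leaf in HL. It had 11.1, 3.99 and 5.65 normalized counts in GL, 8754, 1566 and 1493 in HL15, and 2537, 13358 and 4935 in HL60. It then had 1147, 433 and 508 in R15 and 40.1, 7.98 and 4.44 in R60. Every HL and R15 library was above every GL library, and the R60 libraries overlapped with GL. The log2 fold change was 8.54 ± 0.80 (SE, n = 3 each) in HL15 against GL and 9.55 ± 0.80 in HL60 against GL (limma with Benjamini-Hochberg adjustment over all genes tested, adjusted p = 4.73e-06 and 5.16e-07). The HL60 change was the highest log2 fold change of all genes tested in that comparison.

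HSP23.5, a second mitochondrial protein of the same annotated length (210 residues), started from a higher level and varied least. It had 116, 92.7 and 68.8 normalized counts in GL, 12261, 5190 and 5154 in HL15, and 4221, 10959 and 5138 in HL60. Recovery libraries had 1792, 1443 and 1176 in R15 and 129, 53.5 and 67.8 in R60. The 9 libraries of HL15, HL60 and R15 were all above GL, and R60 lay around the GL values. Its log2 fold change was 6.23 ± 0.40 in HL15 against GL and 6.08 ± 0.40 in HL60 against GL (limma, adjusted p = 1.24e-07 and 4.95e-08), with the smallest standard error of the 6 genes.

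HSP26.5, the third mitochondrial member, was the least abundant of the mitochondrial transcripts. It had 1.12, 2.02 and 0.953 normalized counts in GL, 862, 61.4 and 45.5 in HL15, and 10.01, 125 and 26.0 in HL60. In R15 it had 8.11, 0 and 6.35, and in R60 it was at 0 in all 3 libraries. The lowest HL library stood above the highest GL library, but 1 HL15 library carried most of the HL15 signal. Log2 fold changes were 5.87 ± 1.08 in HL15 against GL and 3.85 ± 1.08 in HL60 against GL (limma, adjusted p = 0.00147 and 0.0111). With 4 reads over the 3 GL libraries, the ratio of reads per depth was 247.8 (95% counting interval 96.54 to 910.8) for HL15 and 38.47 (14.71 to 143) for HL60, where the exact intervals cover counting error only. It was 40.6 (15.5 to 151.2) without HL15 replicate 1 and 13.2 (4.74 to 51.3) without HL60 replicate 2.

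HSP21, which associates with thylakoid membranes and protects photosystem II and the plastid transcription machinery in heat, was at 0 in all 3 GL libraries. It had 711, 51.5 and 49.9 normalized counts in HL15, 55.4, 847 and 252 in HL60, 42.1, 8.66 and 25.8 in R15, and 33.9, 7.19 and 0 in R60. All HL and R15 libraries had reads of a gene for which GL had none. Its level was at least 88.87-fold higher in HL15 than in GL and at least 126.3-fold higher in HL60, with GL set to a floor of 3 reads per library, or 3.05 normalized counts. These bounds rest on means that 1 library carried, and were 16.6-fold without HL15 replicate 1 and 50.5-fold without HL60 replicate 2. On the log2 scale it rose by 6.95 ± 1.26 in HL15 and by 7.84 ± 1.26 in HL60 against GL (limma, adjusted p = 0.00129 and 1.95e-04).

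HSP22.0, the small heat shock protein of the endomembrane system, spread over the widest range within a condition. It had 2.22, 0 and 0.942 normalized counts in GL, 2495, 52.9 and 58.4 in HL15, and 105, 3638 and 893 in HL60. In recovery it had 165, 21.0 and 54.8 in R15 and 104, 4.79 and 1.11 in R60. The highest library was 47.2 times the lowest in HL15 and 34.7 times the lowest in HL60, yet no HL library came near GL. The log2 fold change was 6.76 ± 1.62 in HL15 against GL and 8.57 ± 1.62 in HL60 against GL (limma, adjusted p = 0.00774 and 7.63e-04). Against 3 reads in GL, the ratio of reads per depth was 888.6 (303.8 to 4311) for HL15 and 1472 (503.3 to 7140) for HL60. It was 54.6 (18.3 to 267.7) without HL15 replicate 1 and 480.6 (164 to 2335) without HL60 replicate 2, so the intervals, which cover counting error only, do not hold the spread between libraries.

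HSP15.7, a chaperone of the peroxisome matrix, was highest in HL15 and ended below GL. It had 32.2, 44.9 and 49.9 normalized counts in GL, 6194, 1221 and 1254 in HL15, and only 149, 502 and 240 in HL60. It had 21.1, 12.4 and 14.0 in R15 and 4.46, 0.798 and 5.56 in R60. The HL15 libraries were the highest, HL60 lay between HL15 and GL without overlap with either, and all 6 recovery libraries were below GL. The log2 fold change was 5.63 ± 0.61 in HL15 against GL and 2.63 ± 0.61 in HL60 against GL (limma, adjusted p = 1.83e-05 and 0.00349).

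**Figure D1:**
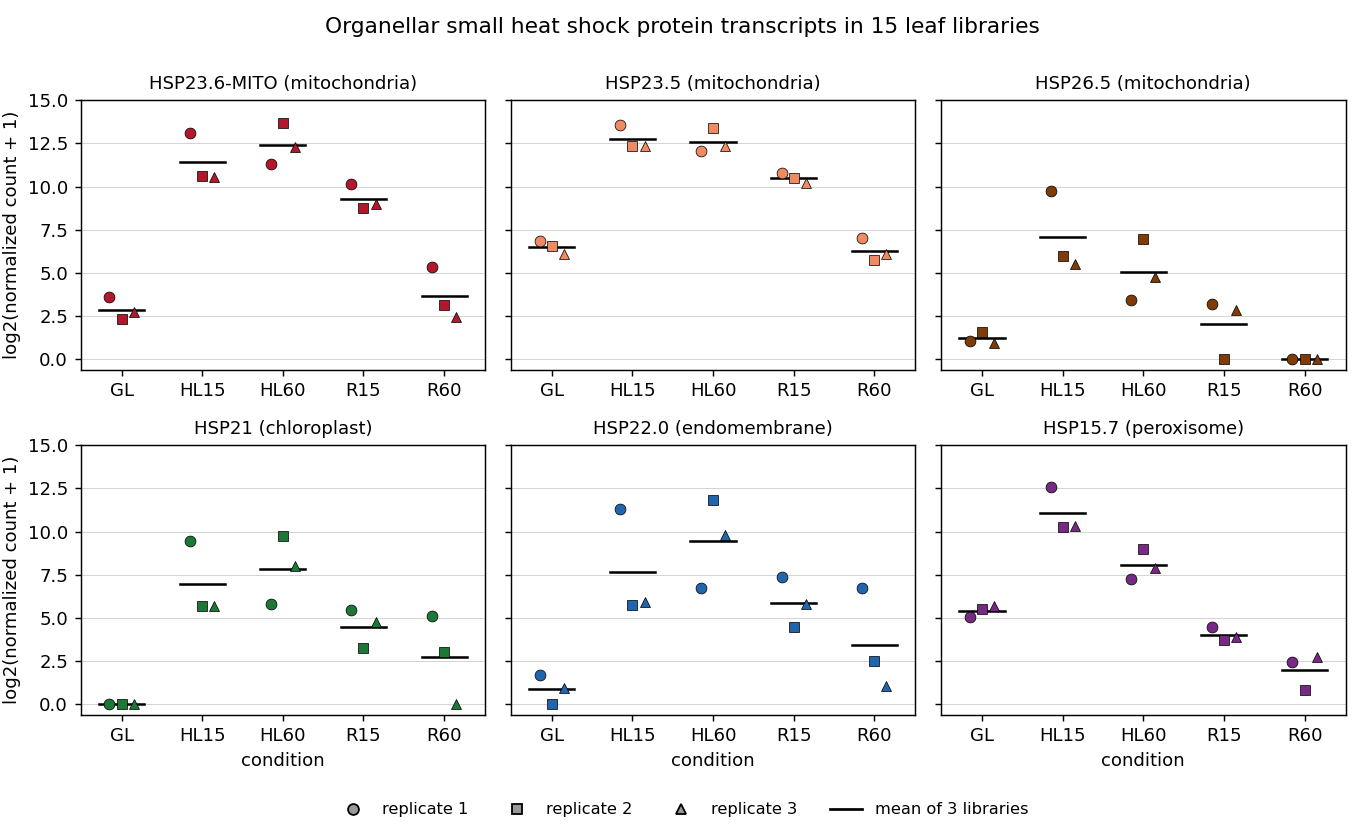
Normalized counts of the 6 organellar small heat shock protein genes in each library, as log2(value + 1), over GL, HL15, HL60, R15 and R60. Points are libraries, with the replicate number as the symbol, and bars are means of the log2 values of 3 libraries. HSP15.7 is highest in HL15 and ends below GL, and HSP26.5 also has its highest mean in HL15 and is at 0 in R60. All 6 genes are above 10 normalized counts in every HL library, and HL15 replicate 1 and HL60 replicate 2 stand above the libraries beside them.

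All 6 genes rose in HL15 against GL, where 4.79% of the genes tested were called higher, and all 6 rose in HL60, where 7.76% were called higher. A gene counted as called when its adjusted p was under 0.05 and its change reached 2-fold. The median log2 fold change of the 6 genes was 6.50 in HL15 and 6.96 in HL60, while the median over all genes tested was -0.03 and -0.00. The size of the HL15 rise depended on replicate 1. Without it the 6 calls remained, and the log2 fold changes against GL were 7.70 for HSP23.6-MITO, 5.82 for HSP23.5, 4.54 for HSP26.5, 5.69 for HSP21, 4.94 for HSP22.0 and 4.86 for HSP15.7. Without HL60 replicate 2 the HL60 values against GL were 8.91, 5.67, 2.89, 6.90, 7.38 and 2.16 in the same order of genes, and the call of HSP26.5 was lost (limma, adjusted p = 0.0629). Without HL60 replicate 1 the values were 6.36 for HSP23.5, 4.65 for HSP26.5, 8.86 for HSP21, 9.94 for HSP22.0 and 3.03 for HSP15.7. No direction changed in these fits.

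**Figure D2:**
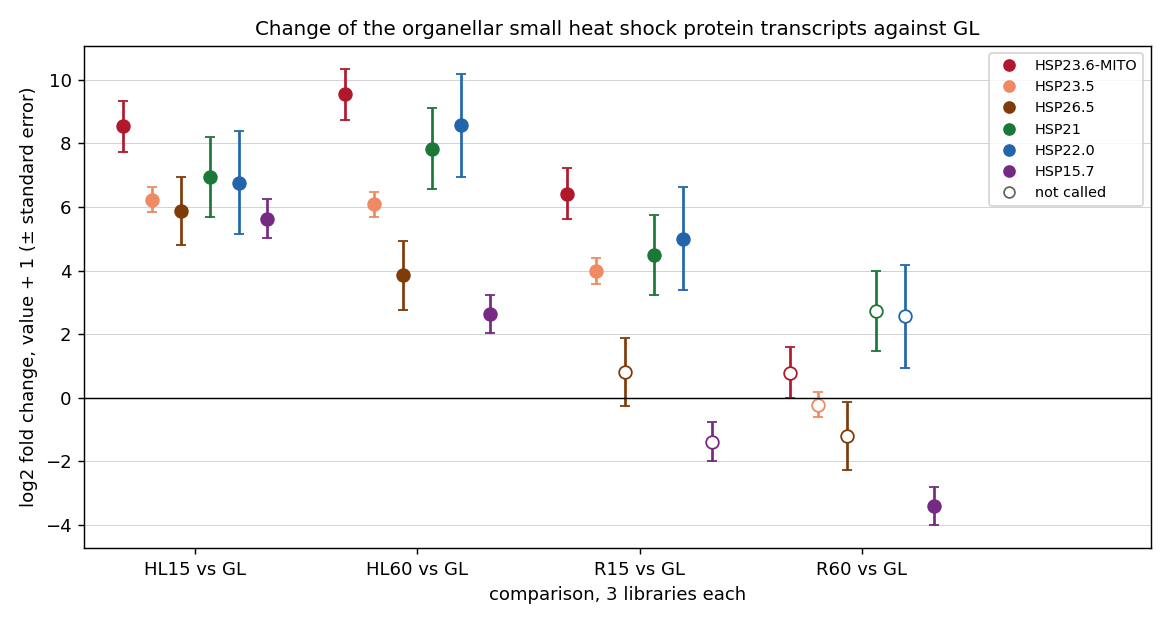
Log2 fold change (on value + 1) of each organellar small heat shock protein gene in HL15, HL60, R15 and R60 against GL, with the standard error of the limma fit, 3 libraries per condition. Filled points were called at an adjusted p under 0.05 and 2-fold. All 6 points are filled in both HL comparisons, 4 in R15, and only HSP15.7, at -3.41, in R60.

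Levels can be set side by side after division by transcript length. In GL the mean level per kb was 83.1 ± 21.4 normalized counts for HSP23.5, 50.7 ± 10.99 for HSP15.7, 6.59 ± 3.54 for HSP23.6-MITO, 1.31 ± 0.548 for HSP26.5, 1.02 ± 1.08 for HSP22.0 and 0 for HSP21 (SD, n = 3). In HL15 it was 6758 ± 3671 for HSP23.5, 3757 ± 3980 for HSP23.6-MITO, 3465 ± 3431 for HSP15.7, 839 ± 1361 for HSP22.0, 309 ± 447 for HSP26.5 and 276 ± 388 for HSP21. In HL60 it was 6626 ± 5423 for HSP23.6-MITO, 6074 ± 3278 for HSP23.5, 1493 ± 1792 for HSP22.0, 392 ± 419 for HSP21, 356 ± 220 for HSP15.7 and 51.4 ± 59.7 for HSP26.5. Neighbours in the HL15 order differed by less than the larger of their SDs. In the HL60 order this held for all neighbours except HSP23.5 and HSP22.0, and HSP15.7 and HSP26.5, and in GL for HSP26.5 and HSP22.0 alone among the 5 genes with reads.

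The comparison of HL60 with HL15 addresses what the longer exposure added. HSP15.7 fell, with a log2 fold change of -3.01 ± 0.61 in HL60 against HL15 (limma, adjusted p = 0.00168), with 149 to 502 normalized counts in HL60, against 1221 to 6194 in HL15. It was the single gene of the 6 called lower, where 6.22% of the genes tested were called lower, and 0 of 6 were called higher by limma (0 of 6 also at an unadjusted p under 0.05), where 6.4% were. The log2 fold changes of the other genes were 1.01 for HSP23.6-MITO, -0.15 for HSP23.5, -2.02 for HSP26.5, 0.89 for HSP21 and 1.81 for HSP22.0 (limma, adjusted p from 0.162 to 0.800), and their HL60 and HL15 libraries overlapped. With standard errors of 0.40 to 1.62 log2 units, a change of several fold could go unseen in some of these genes. Without HL15 replicate 1 the value of HSP15.7 was -2.23 (adjusted p = 0.00566) and that of HSP23.5 was 0.26. HSP23.5 was at 0.12 without HL60 replicate 1, and HSP21 was at -0.05 without HL60 replicate 2.

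The genes were also compared with each other within each library. Per kb, HSP15.7 made up 2.73, 2.18 and 2.67% of the summed level of the 6 genes in HL60, against 24.2, 18.8 and 19.5% in HL15. HSP23.6-MITO made up 36.9, 46.1 and 43.8% in HL60, against 27.2% or less in HL15. HSP26.5 made up 0.146, 0.433 and 0.232% in HL60, against 2.69, 0.757 and 0.5655% in HL15. For HSP15.7, HSP23.6-MITO and HSP26.5 the shares did not overlap between HL60 and HL15, also in the libraries that stood apart in level. The shares of HSP23.5, HSP21 and HSP22.0 overlapped. Shares within a library are tied to each other, so the lower share of HSP15.7 in HL60 raises the others by itself. The log2 ratios of HSP23.6-MITO to HSP23.5, HSP21 and HSP22.0 overlapped between HL60 and HL15. The log2 ratio of HSP23.6-MITO to HSP15.7 was 4.08 to 4.73 in HL60, against 0.25 to 0.50 in HL15, and that of HSP26.5 to HSP21 was -3.23 to -2.36 in HL60, against -0.13 to 0.28 in HL15. Among the 15 ratios between pairs of these genes, 7 did not overlap between HL60 and HL15, both of these included. Each of the 7 involves HSP15.7 or HSP26.5, so they are not independent of each other. All 7 had the smallest p that 3 against 3 libraries allow, 0.1 in a two-sided exact permutation test. After Benjamini-Hochberg adjustment over the 15 it was 0.214, so no ratio is shown to differ.

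**Figure D3:**
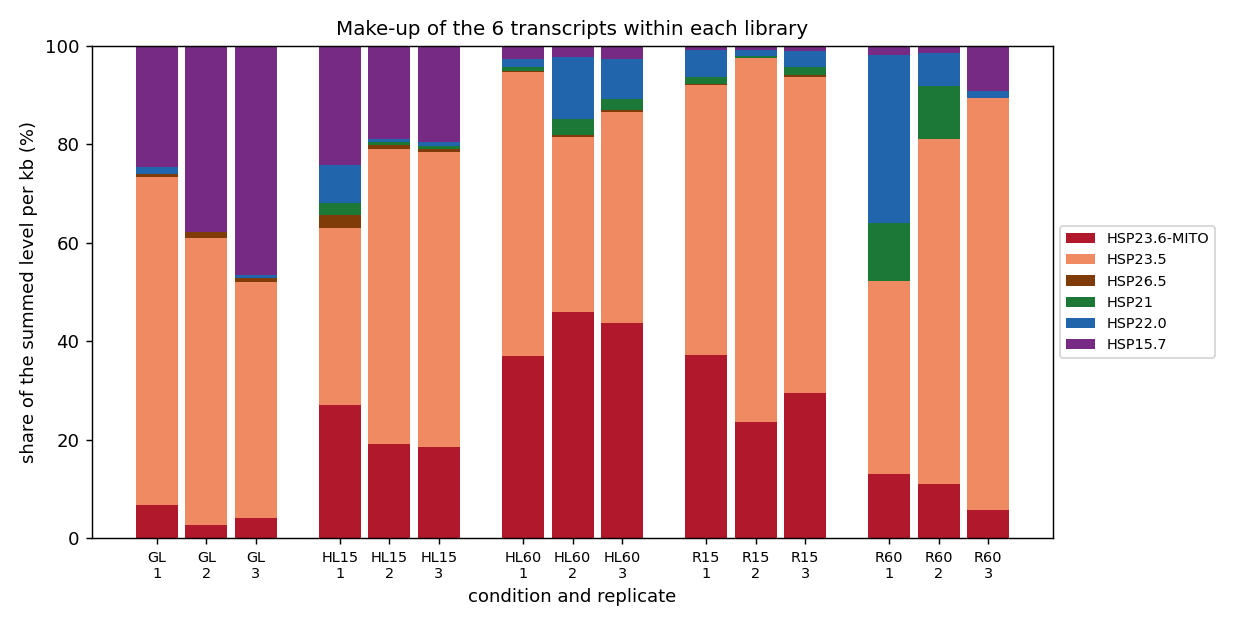
Share of each gene in the summed level per kb of the 6 organellar small heat shock protein genes, in percent, for each library by condition and replicate. HSP15.7 takes 24.6 to 46.5% in GL, 18.8 to 24.2% in HL15 and 2.18 to 2.73% in HL60, and the 3 mitochondrial genes take most of the bar in every library.

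The first recovery time was compared with the end of HL. In R15 against HL60, 3 of 6 genes were called lower, where 3.73% of the genes tested were. All 6 were lower at an unadjusted p under 0.05 (limma), a looser rule whose share over all genes tested was not counted. The log2 fold change was -3.12 ± 0.80 for HSP23.6-MITO, -2.10 ± 0.40 for HSP23.5 and -4.0 ± 0.61 for HSP15.7 (limma, adjusted p = 0.0113, 0.00166 and 2.80e-04). The other values were -3.04 for HSP26.5, -3.36 for HSP21 and -3.57 for HSP22.0 (adjusted p = 0.0556, 0.0682 and 0.134). Of these, the libraries of HSP22.0 overlapped (21.0 to 165 in R15, against 105 to 3638 in HL60) and those of HSP26.5 and HSP21 did not. HL60 replicate 1, the lowest HL60 library for each of the 6 genes, weighed on this count. Without it all 6 were called lower, with values of -3.84 for HSP26.5, -4.37 for HSP21 and -4.94 for HSP22.0. Without HL60 replicate 2 the call of HSP23.6-MITO was lost (-2.48, adjusted p = 0.0599), and HSP26.5 was also called without R15 replicate 1 (-3.63, adjusted p = 0.0460).

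Of the 6 genes, 4 were higher in R15 than in GL, where 10.9% of the genes tested were called higher. The log2 fold change was 6.42 for HSP23.6-MITO, 3.98 for HSP23.5, 4.48 for HSP21 and 5.0 for HSP22.0 (limma, adjusted p = 1.59e-05, 2.21e-06, 0.00907 and 0.0207), and the R15 and GL libraries of these 4 genes did not overlap. HSP21 was at least 8.372-fold higher in R15 than in GL, with GL set to the floor of 3 reads per library. This bound was 5.65-fold without R15 replicate 1. HSP26.5 had a value of 0.81 (adjusted p = 0.575) with overlapping libraries. HSP15.7 had 12.4 to 21.1 normalized counts in R15, against 32.2 to 49.9 in GL, a value of -1.38 (adjusted p = 0.0804), so that limma called 0 of 6 lower (1 of 6 at an unadjusted p under 0.05), where 8.94% of the genes tested were. The calls of HSP21 and HSP22.0 did not hold with a pseudocount of 5 in place of 1 (2.44 and 3.42, adjusted p = 0.0684 and 0.0717). That of HSP22.0 was also lost without GL replicate 2 (4.56, adjusted p = 0.0682) and without R15 replicate 1 (4.25, adjusted p = 0.0791).

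The later recovery time was compared with the earlier one. In R60 against R15, 3 of 6 genes were called lower, where 8.05% of the genes tested were. HSP23.6-MITO fell by 5.65 ± 0.80, to 4.44 to 40.1 normalized counts in R60, against 433 to 1147 in R15. HSP23.5 fell by 4.20 ± 0.40, to 53.5 to 129 in R60, against 1176 to 1792 in R15 (limma, adjusted p = 7.79e-05 and 2.40e-06). Neither gene had overlapping libraries. HSP15.7 fell by 2.03 ± 0.61 (adjusted p = 0.0161), a call that rests on libraries with 1 to 5 reads in R60 and was lost with a pseudocount of 5 (-1.30), without R15 replicate 1 (-1.82, adjusted p = 0.0584) and without R60 replicate 2 (-1.46, adjusted p = 0.0837). HSP26.5, HSP21 and HSP22.0 had values of -2.02, -1.76 and -2.44 (adjusted p from 0.152 to 0.287), and HSP26.5 was called lower without R15 replicate 2 (-3.03, adjusted p = 0.0438). HSP26.5 was at 0 in all 3 R60 libraries and in 1 of 3 R15 libraries.

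In R60 against GL, limma called 0 of 6 genes higher (1 of 6 at an unadjusted p under 0.05), where 10.7% of the genes tested were, and 1 of 6 was called lower, where 8.53% were. The lower gene was HSP15.7, with 4.46, 0.798 and 5.56 normalized counts in R60, against 32.2, 44.9 and 49.9 in GL. Its mean was 11.7-fold lower in R60 than in GL (11 reads in R60, against 127 in GL), and its log2 fold change was -3.41 ± 0.61 (limma, adjusted p = 3.95e-04). HSP23.6-MITO and HSP23.5 were at 0.78 and -0.22 (adjusted p = 0.470 and 0.699), with overlapping libraries. The value of HSP23.6-MITO rested on R60 replicate 1 and was -0.08 without it, and that of HSP23.5 was 0.05 without R60 replicate 2. HSP21 and HSP22.0 were at 2.72 and 2.56 (adjusted p = 0.0954 and 0.223), with 33.9, 7.19 and 0 normalized counts of HSP21 in R60, against 0 in GL. HSP21 was called higher without R60 replicate 3 (4.08, adjusted p = 0.0155). HSP26.5 was at or under the floor in both conditions, and no fold is given.

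HSFA2, a heat shock factor that drives many small heat shock protein genes, was highest in HL15 and lowest in R60. It had 161, 122 and 112 normalized counts in GL, 38233, 22243 and 22258 in HL15, 794, 2615 and 1592 in HL60, 45.3, 104 and 40.3 in R15, and 3.72, 2.497 and 9.27 in R60. Its log2 fold change was 7.67 ± 0.46 in HL15 and 3.51 ± 0.46 in HL60 against GL, and it fell by 4.16 ± 0.46 in HL60 against HL15 (limma, adjusted p = 6.45e-08, 3.24e-05 and 1.29e-05). HSFA2 and HSP15.7 were thus both lower in HL60 than in HL15, while the other 5 genes were not called in that comparison, HSP26.5 with a value of -2.02 (adjusted p = 0.162) among them. In R60, HSFA2 was also below GL (-4.56, adjusted p = 2.16e-06).

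The genes most like each member were found by the root mean square difference of log2(value + 1), each gene centred on its own mean, over the 15 libraries and 17479 candidate genes. For HSP15.7 they were MBF1C, a transcriptional coactivator of the heat response (0.757 log2 units), AT2G20560, a DnaJ protein gene (0.762), and HSP101, the cytosolic disaggregase (0.811). For HSP23.5 they were AT5G48570, the peptidyl-prolyl isomerase ROF2 (0.531), PAP17, an acid phosphatase (0.942), and AT1G07500, the cell cycle inhibitor SMR5 (0.975). For HSP23.6-MITO they were HSP17.6A (1.09) and HSP17.6II (1.20), both cytosolic class II small heat shock proteins, and AT1G07400, of the same protein family (1.403). HSP21 and HSP22.0 shared their 3 nearest genes, APX2, an ascorbate peroxidase known for its response to strong light, AT1G53540 and HSP18.2, at 1.11 to 1.27 for HSP21 and 1.22 to 1.48 for HSP22.0. For HSP26.5 they were HSP70T-2 (0.947), AT1G54050, of the small heat shock protein family (1.015), and AT5G25450 (1.03). The median difference to all candidates was 2.91 to 4.10 log2 units over the 6 genes, and these distances are descriptions that share libraries and depth.

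APX2 averaged 1.06 normalized counts in GL, 81.6 in HL15, 257 in HL60, 19.8 in R15 and 3.34 in R60, and was not called in HL60 against HL15 (2.11, limma, adjusted p = 0.158). MBF1C, next to HSP15.7, averaged 513 normalized counts in GL, 19007 in HL15, 2411 in HL60, 61.8 in R15 and 24.0 in R60. It was highest in HL15 and below GL in recovery like HSP15.7, a likeness for which it was chosen. In R15 against GL, MBF1C was called lower (-3.09, limma, adjusted p = 1.99e-05) and HSP15.7 was not (-1.38, adjusted p = 0.0804).

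Other chaperones of the same organelles were compared with the 6 small heat shock proteins through lists of known members. In HL15 against GL, 10 of 12 cytosolic small heat shock protein genes were called higher and 0 lower, with a median log2 fold change of 8.08 (limma, 11 and 0 at an unadjusted p under 0.05), and HL60 gave the same counts with a median of 6.30. The called values in HL15 ran from 2.97 for HSP18.5 to 9.19 for HSP17.6A, and in HL60 from 1.82 for HSP18.5 to 9.46 for AT1G53540. Called values of the organellar genes, 5.63 to 8.54 in HL15 and 2.63 to 9.55 in HL60, lay within these ranges except for HSP23.6-MITO in HL60. In HL60 against HL15, 4 of 12 cytosolic genes were called lower and 0 higher (limma, 4 and 0 also at an unadjusted p under 0.05). Of all genes tested, 6.22% were called lower and 6.4% higher. Of the organellar genes, 1 of 6 was called lower, and whether the lists differ was not tested.

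ATP-driven chaperones of the same organelles and their partners had lower medians than the 6 small heat shock proteins. Of 10 mitochondrial chaperone genes, 4 were called higher and 0 lower in HL15 (median 0.44) and likewise 4 and 0 in HL60 (median 0.99). They ran from 1.28 for MGE2, a nucleotide exchange factor, to 4.17 for CLPB4, the mitochondrial disaggregase, in HL15, and from 1.5 for MGE2 to 1.94 for MTHSC70-2, a mitochondrial HSP70, in HL60. Of 10 chloroplast chaperone genes, 2 were called higher in HL15 (median 0.19), CPN60B2, a chaperonin subunit, at 1.16 and CLPB3, the plastid disaggregase, at 1.97. In HL60 3 were called higher (median 0.80), from 1.24 for CLPB3 to 2.15 for CPN60B2, and 0 were called lower at either time. At an unadjusted p under 0.05, 3 mitochondrial and 2 chloroplast chaperone genes were lower in HL15 and 0 of either in HL60 (limma).

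Among endoplasmic reticulum chaperones more genes were called in HL60. In HL15 1 of 12 was called higher (median 0.22), ERDJ3A, a DnaJ co-chaperone, at 6.04 (limma, 4 higher and 1 lower at an unadjusted p under 0.05). In HL60 10 of 12 were called higher and 0 lower (median 2.00), from 1.47 for PDIL1-1, a protein disulfide isomerase, to 3.65 for ERDJ3A, and in HL60 against HL15 9 were called higher and 1, ERDJ3A, lower. HSP22.0, the small heat shock protein of this compartment, was already higher in HL15, when 11 of the 12 other chaperones were not called. Of 8 genes for peroxisome quality control and import, limma called 0 in HL15 (median 0.11, with 2 higher and 1 lower at an unadjusted p under 0.05) and 1 was called lower in HL60, the protease LON2 at -1.39 (median 0.12), while HSP15.7 was called higher at both times. Whether a small heat shock protein differed from the other chaperones of its organelle was not tested.

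Of the regulators, 11 of the 16 heat shock factors and coactivators tested were called higher in HL15 (median 2.54), from 1.02 for HSFA4A to 8.09 for HSFA7A, and 8 in HL60 (median 1.42), from 1.85 for HSFA3 to 3.73 for DREB2A. In HL60 against HL15, 8 of 16 were called lower, among them HSFA2 and MBF1C (-3.16), and 1 higher.

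**Figure D4:**
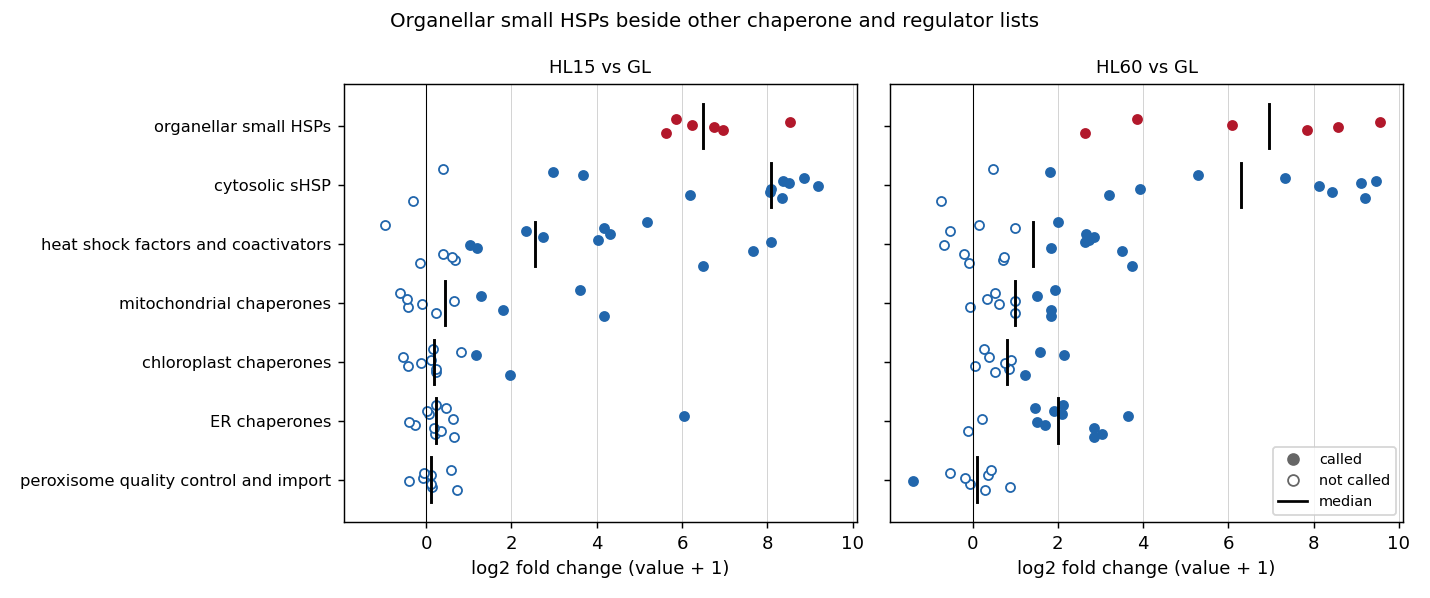
Log2 fold change (on value + 1) of the 6 organellar small heat shock protein genes and of 6 lists of other chaperones and regulators, in HL15 (left) and HL60 (right) against GL. Each point is a gene, filled where called at an adjusted p under 0.05 and 2-fold, and the bar is the list median. The organellar small heat shock proteins lie at a median of 6.50 and 6.96, beside 8.08 and 6.30 for the cytosolic ones, and the ER chaperones lie at 0.22 in HL15 and 2.00 in HL60.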

How the data were processed

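RNA-seq of Col-0 leaves covered GL, HL15, HL60, R15 and R60, with condition and replicate number taken from the sample labels. The authors quantified reads with Salmon (v0.12) on TAIR cDNA sequences, with TAIR10 named in the submitters' processing notes, and used DESeq2. The deposited signal values are normalized counts. Judged by the numbers themselves, they are estimated reads over a size factor, with a further factor for genes with several transcripts. Of the low values, 60.0 to 63.3% were whole reads (tolerance 0.01, up to 200 reads), so reads were not recovered for all genes and no count test was run.

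The 1081 genes with a sum under 10 were left out. Log2(value + 1) was fitted with limma 3.58.1 (R 4.3.3) over all 15 libraries, with a variance trend and 1 coefficient for each condition. This scale understates changes of low genes. Calls required 2-fold and p under 0.05 after Benjamini-Hochberg adjustment over 20512 genes. The procedure was tested on simulated data. Depth per library limits genes with few reads, as stated beside them, while the spread between replicates set the precision of the others. Alternatives were other normalizations, pseudocounts, filters and fits, a replicate block and leaving out each library; averaging HL15 replicates 2 and 3, and folds over low GL values without single libraries, were added after seeing the data. The members, lists and tests were chosen with earlier results of these data known. Named genes were the 6 members, HSFA2, the 3 genes nearest to each member by profile, and in each list the largest and smallest called change in HL15 and HL60. Positions and sequences are from RefSeq TAIR10.1, in which 21390 genes (99.1%) were matched by locus tag. Protein sequences were not used here.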

Additional observations from a re-analysis of the deposited data

Results flagged for a closer look

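Effects that differed between times of the same treatment were singled out where the difference itself passed the limma test. HSP15.7 had a smaller rise in HL60 than in HL15, by a log2 difference of -3.01 (adjusted p = 0.00168), with libraries of 149 to 502 normalized counts in HL60, against 1221 to 6194 in HL15. In recovery, 3 of 6 genes were called lower at R60 than at R15, where 8.05% of the genes tested were. The log2 difference was -5.65 for HSP23.6-MITO, -4.20 for HSP23.5 and -2.03 for HSP15.7 (limma, adjusted p = 7.79e-05, 2.40e-06 and 0.0161). The call of HSP15.7 rests on R60 libraries with 1 to 5 reads. It was lost with a pseudocount of 5, without R15 replicate 1 and without R60 replicate 2. With 3 libraries per condition, single libraries were not tested as outliers.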

How the results depend on the processing

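The counts of called genes in HL15 and HL60 against GL, HL60 against HL15 and R60 against R15 kept within 1.5 times of their values under all alternatives run. With a pseudocount of 5, 2 genes were called in R15 against GL in place of 4. Leaving out single libraries gave 6 called genes in HL15 against GL, 5 to 6 in HL60, 3 to 4 in R15 and 1 to 2 in R60, with 1 in HL60 against HL15, 2 to 6 in R15 against HL60 and 2 to 4 in R60 against R15. The 6 came without HL60 replicate 1, and the 2 in R60 without R60 replicate 3. Values that changed sign were never called. Leaving out single libraries gave -0.57 to 0.26 for HSP23.5 and -0.05 to 2.15 for HSP21 in HL60 against HL15, and -0.08 to 1.38 for HSP23.6-MITO and -0.58 to 0.05 for HSP23.5 in R60 against GL. HSP23.5 was at 0.26 and 0.12 without HL15 and HL60 replicate 1. HSP26.5 in R15 against HL60 was called after upper quartile (-3.09, adjusted p = 0.0491) and quantile normalization (-3.18, adjusted p = 0.0422), HSP21 in that comparison with a pseudocount of 5 (-3.13, adjusted p = 0.0406), and HSP15.7 in R15 against GL in a fit of those conditions alone (-1.38, adjusted p = 0.00391). The cause of these changes was not tested. A replicate block left the called counts at 6, 6, 4 and 1 against GL and changed no call. Of 30 correlations between the deviations of same-numbered libraries, 2 were over 0.1 (-0.083 to 0.137), both between HL15 and R15. Libraries of different numbers were not compared, so these values cannot show whether libraries pair. Averaging HL15 replicates 2 and 3, no filter, a mean of 10 or more, no trend, a pseudocount of 0.5 and no minimum fold changed no call. Depth limits HSP26.5, HSP21 and HSP22.0 in GL and recovery, where few reads were counted.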
